A study of Mus musculus with 12 samples.

Results

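Cytosolic ribosomal proteins build the large (60S) and small (40S) subunits of the ribosome, the particle that translates mRNA into protein. Each ribosome holds a single copy of almost every one of them, with several copies only in the acidic stalk, so cells make these proteins in matched amounts. Their mRNAs are short and abundant, and most begin with a C followed by a run of pyrimidines, the 5′ terminal oligopyrimidine (TOP) motif, through which the mTORC1 kinase and the RNA-binding protein LARP1 control their translation and stability. The liver makes both its own proteins and most plasma proteins and therefore carries a large stock of ribosomes.

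The genes described here were chosen by their symbols: Rpl or Rps with a number, Rplp0 to Rplp2, and Rpsa, leaving out symbols marked as pseudogenes (-ps). There were 88 such symbols among the 48526 annotated genes, and 81 of them were among the 11968 genes of the filtered count table. They were measured by poly(A)-selected, strand-specific RNA sequencing of livers of young adult C57BL/6J mice, an inbred laboratory strain without any transgene. Female chow and male chow mice received chow alone, and female statin and male statin mice received chow that contained simvastatin, which blocks HMG-CoA reductase and so cholesterol synthesis, at 0.1 g per kg for 4 weeks. The study's methods relate this dose to the weight of the food, and the sample labels relate it to body weight. The labels also give chow and statin livers the same diet formula number, which the methods give for the simvastatin chow alone, so the groups used here rest on the titles and the treatment wording of the labels. Each of the 4 groups had 3 livers, each from a different mouse. Liver depth ran from 46066381 to 60419223 counts. All 6 hepatocyte markers were detected, with a summed level of 78486 to 146605 CPM (a count relative to the total count of its liver) over the 12 livers.

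Of the 81 genes, 45 encode proteins of the 60S subunit and 31 proteins of the 40S subunit. The other 5 were the paralogs Rpl7l1, Rpl22l1 and Rps27l and the gene copies Rps4l and Rps3a2, which GENCODE annotates as processed pseudogenes (that of Rps4l as transcribed) although their symbols do not say so. The genes lay on 19 chromosomes. A snoRNA gene lay inside 30 of them. The annotated mRNA had a median length of 761 bases, against 2772 bases over all genes of the table, and 79 of the 81 lengths were below that median. Of the 50-base stretches of these mRNAs, a median of 56.6% also occurred in the transcript of another annotated gene, and 50 of the 81 genes shared over 50%. Sharing ran from 0% to 98.7%, the latter in Rps27, whose mRNA stretches recur in the gene Rps27rt. How reads that match several genes were counted was not given in the sources used here, so the levels of genes with much shared sequence are uncertain.

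Of the 81 genes, 59 had an entry in the RefSeq table of transcription start regions (build GRCm38.p6). A run of at least 5 bases of C or T that began with a C exactly at an annotated start was found in 13 of the 59 genes (22.0%), against 3.01% of the 27025 genes of that table, read on the gene's own strand. A run of that length that began with a C anywhere from 10 bases before to 10 bases after the start was found in 36 of them (61.0%), against 34.4% of all genes. The following windows, picked after the values were seen, show 30 bases from 10 bases before the annotated start. They stand for genes with the motif (Rps18, Rps6, Rpl15), genes with steady levels (Rpl28, Rpl4, Rpl23), the gene that separated the sexes (Rps26) and the gene with the widest spread (Rpl22l1). Capitals mark the longest run of at least 5 pyrimidines that begins with a C within 10 bases of the start.
Rps18 (chr17:33955646-33955675, minus strand): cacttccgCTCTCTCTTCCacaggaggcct
Rps6 (chr4:86857348-86857377, minus strand): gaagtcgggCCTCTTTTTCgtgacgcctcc
Rpl15 (chr14:18270967-18270996, minus strand): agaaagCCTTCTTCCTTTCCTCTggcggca
Rpl28 (chr7:4792955-4792984, plus strand): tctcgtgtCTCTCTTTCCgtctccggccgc
Rps26 (chr10:128626487-128626516, minus strand): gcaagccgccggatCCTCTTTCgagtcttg
Rpl22l1 (chr3:28805498-28805527, plus strand): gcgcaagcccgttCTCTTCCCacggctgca
Rpl4 (chr9:64173377-64173406, plus strand): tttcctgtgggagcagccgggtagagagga
Rpl23 (chr11:97782420-97782449, minus strand): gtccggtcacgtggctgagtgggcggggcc
In Rpl4 and Rpl23 no such run lay in this window, which says only that these letters are not there. The annotated start may lie some bases from the start used in liver.

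The genes were expressed at a median of 139 TMM-normalised CPM, which divides each count by the depth of its liver and by a factor that adjusts for composition. The median over all genes of the table was 16.9. These medians are not per length. Per kilobase of merged exon, the 5 highest were Rplp1 (574 CPM per kb), Rps15 (326), Rpl36 (295), Rplp0 (273) and Rps2 (256). Rplp1 and Rplp0 belong to the acidic stalk, which recruits translation factors, and Rps2 lies at the mRNA entry channel of the 40S subunit. The 5 lowest per kilobase were Rps3a2 (1.74), Rpl13a (3.43), Rps4l (11.2), Rpl7l1 (16.5) and Rps15a (17.5). The order depended on the length used. Per kilobase of the annotated mRNA the 5 highest were Rplp1 (574), Rpl10 (542), Rps2 (469), Rps18 (437) and Rps15 (410.2), with Rplp0 at rank 13 and Rpl36 at rank 19. The listed mRNA of Rps15a, at 5130 bases, was the longest of all. Rpl13a shared 57.4% of its stretches with a transcript that overlaps it, Gm45713. Among the 7 genes under the filter on low counts, the core 60S gene Rpl24 had 0 to 15 counts in a liver and shared 69.4% of its stretches with Gm28037, a gene annotated at the same place and strand, and 59.4% with Gm9385. The muscle-restricted paralog Rpl3l had at most 7 counts, Rpl39l at most 3, and Rpl10l had 0 in all 12 livers, which allows at most 0.0651 CPM. Annotated copies under the filter were Rps3a3 (19 to 41 counts), Rpl6l (4 to 17) and Rps12l1 (0 to 3).

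The share of all reads that fell on the 81 genes varied widely among livers of the same group, and the lowest and the highest of the 12 were both male statin livers. It was 1.18%, 1.73% and 1.33% in female chow livers 1 to 3, and 1.72%, 1.02% and 1.26% in female statin livers. It was 1.39%, 1.203% and 1.046% in male chow livers, and 0.920%, 1.34% and 1.75% in male statin livers. The statin livers overlapped the chow livers in both sexes, and the female livers overlapped the male livers on both diets. As a mean ± SD of 3 livers, the share was 1.41% ± 0.281 for females on chow and 1.33% ± 0.358 for females on statin. For males it was 1.21% ± 0.174 on chow and 1.34% ± 0.415 on statin. The highest liver of a group exceeded the lowest by 1.33 times in male chow and by 1.90 times in male statin.

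**Figure D1:**
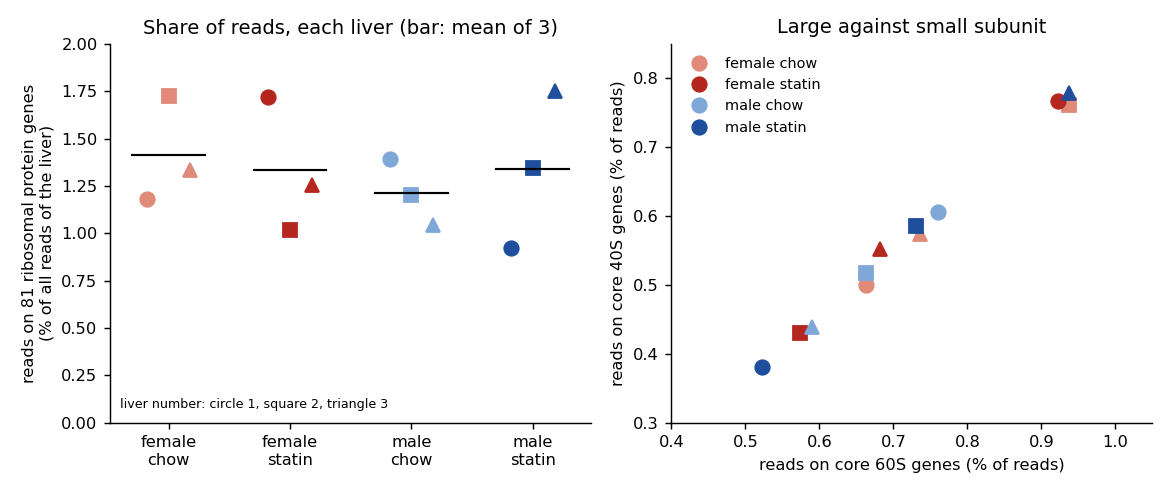
Left, the percent of a liver's reads that fell on the 81 ribosomal protein genes (y axis), for each liver of the 4 groups, with the mean of 3 livers as a bar; right, the percent on the 60S genes (x axis) against the percent on the 40S genes (y axis), where each point is a liver. The groups overlap at left, from 0.920% to 1.75%, and at right the livers lie along a single rising line.

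Both subunits moved together from liver to liver. Reads on 60S genes were 1.202 to 1.37 times those on 40S genes in every liver. The ratio was lowest in female statin 1 (1.202) and male statin 3 (1.203), which had high total shares, and highest in male statin 1 (1.37), which had the lowest. Nearly every gene took part in the difference between livers. Among the 79 genes whose mean reached 10 CPM, female statin 1 was above female statin 2 in 76, by a median of 0.71 on the log2 scale, while the median of all other genes at that level differed by -0.05. Male statin 3 was above male statin 1 in 78 of the 79, with a median difference of 0.90. In male chow, liver 1 was above liver 2 in all 79, with a median difference of 0.24, and in female chow, liver 2 was above liver 1 in 77, with a median difference of 0.47.

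**Figure D2:**
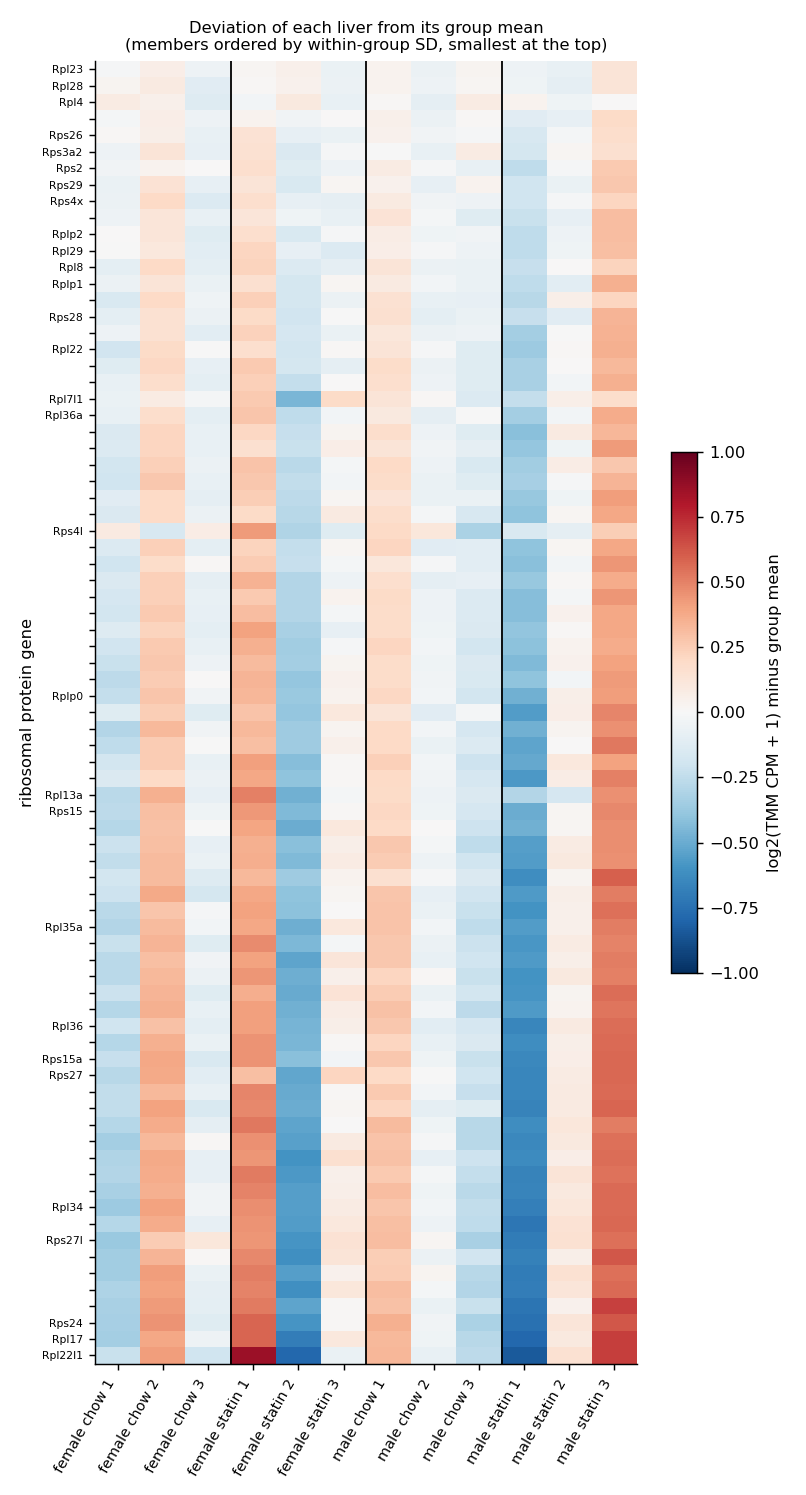
Deviation of each liver (x axis) from the mean of its group in log2(TMM-normalised CPM + 1), in color, for 79 of the 81 genes (y axis, some of them labelled) ordered by their within-group SD. Female statin 1 and male statin 3 are above their group means and female statin 2 and male statin 1 below them in nearly every gene, with Rpl23, Rpl28 and Rpl4 near 0 at the top and Rpl22l1 furthest from 0 at the bottom.

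The within-group SD of log2(TMM-normalised CPM + 1), pooled over the 4 groups, had a median of 0.33 over the 79 genes. It was 0.23 over 70 mitochondrial ribosomal protein genes, 0.21 over 37 proteasome subunit genes, 0.28 over 502 other genes with an mRNA under 1000 bases and 0.20 over all 7641 genes at 10 CPM or more. Over 18 TOP mRNAs outside the ribosome it was 0.25, and their mean deviation in a liver lay between -0.15 and 0.16, against -0.46 to 0.43 for the ribosomal protein genes. Of the within-group variance of the ribosomal protein genes, 96.8% lay along a single axis across the livers. That share was 89.7% for the mitochondrial ribosomal protein genes, 87.8% for the 18 TOP mRNAs and 84.7% for the proteasome subunits. It was 66.7% for the other short mRNAs and 57.8% for all genes at that level. Of the 81 genes, 70 had a correlation over 0.9 with the mean deviation of the others across the 12 livers, as a description of livers that share their group means.

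The order of the livers within a group was shared with other short mRNAs. The mean deviation of the ribosomal protein genes was 0.33 in female statin 1, -0.35 in female statin 2, -0.46 in male statin 1 and 0.43 in male statin 3. In the same livers the 502 other short mRNAs deviated by 0.23, -0.31, -0.32 and 0.26, and mRNAs of at least 5000 bases by -0.24, 0.23, 0.23 and -0.17. The slope of a liver's log2 levels on the log2 mRNA length, over genes that are not ribosomal protein genes and against the mean of its group, was -0.15 in female statin 1, 0.17 in female statin 2, 0.16 in male statin 1 and -0.12 in male statin 3. Slopes in the other 8 livers were between -0.06 and 0.07. The part of transcript length in the levels of the ribosomal protein genes was not tested here. In bulk liver, less RNA per cell and fewer cells of a type cannot be told apart. The summed level of 4 mitochondrial transcripts, Malat1 and Neat1 was 28437 to 33042 CPM in chow and 29287 to 36142 in statin livers of females. In males it was 30180 to 35387 on chow and 30493 to 42779 on statin.

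**Figure D3:**
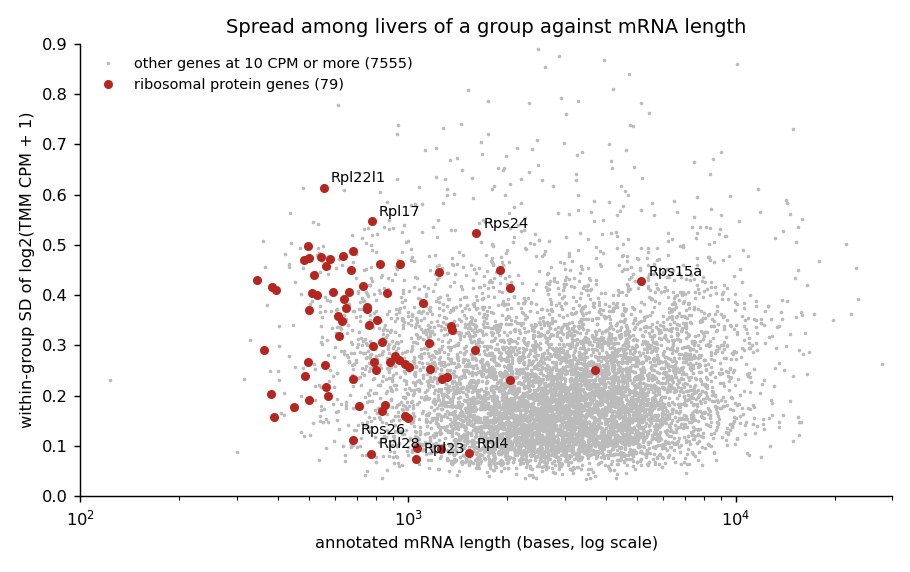
Within-group SD of log2(TMM-normalised CPM + 1) (y axis) against the annotated mRNA length in bases on a log axis (x axis), with 79 ribosomal protein genes in red and 7555 other genes at 10 CPM or more in gray; 19 of the other genes lie outside the axes. The red points lie mostly left and above, while Rpl4, Rpl23 and Rpl28 lie near the bottom and Rps15a far to the right.

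A few ribosomal protein genes varied little within groups. Rpl23, a 60S protein, measured 166, 174 and 161 CPM on chow and 161, 164 and 151 on statin in females. In males it measured 151, 141 and 149 on chow and 140, 137 and 158 on statin. Its within-group SD of 0.07 was the smallest of the 81 and lay above that of only 2.96% of all genes at 10 CPM or more. Rpl28 had an SD of 0.08 and ranged from 115 to 146 CPM over all livers. The deviations of Rpl23 and Rpl28 had a correlation of 0.48 and 0.44 with the mean of the other members. Rpl4, which lines the peptide exit tunnel, measured 469.8, 459 and 405 CPM on chow and 376, 409.8 and 364 on statin in females. In males it measured 379, 355 and 398 on chow and 371, 351 and 364 on statin. It had an SD of 0.09, and its correlation with the mean of the others was -0.28, the only negative value. Rpl21 and Rps26 were also among the 6 steadiest, with an SD of 0.10 and 0.11 and a correlation of 0.797 and 0.887 with the others. These steady genes were not set apart by length: the mRNAs of Rpl28, Rpl23 and Rpl4 are 772, 1059 and 1538 bases long. Over the 81 genes the within-group SD had a Spearman correlation of -0.21 with mRNA length, 0.12 with mean level, -0.06 with the GC content of the mRNA and 0.13 with the share of stretches found in other genes, as a description over genes that share the same 12 libraries.

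At the other end stood Rpl22l1, the paralog of Rpl22, a 60S protein that also binds other RNAs. Rpl22l1 measured 39.9, 62.9 and 40.5 CPM on chow and 64.9, 20.1 and 33.7 on statin in females. In males it measured 33.5, 25.1 and 21.9 on chow and 18.03, 36.97 and 54.04 on statin. Its groups overlapped except on chow, where the females lay above the males, and its SD of 0.61 was the largest. Rpl22 itself ranged from 67.3 to 112 CPM, with an SD of 0.23. Rpl17, at the rim of the peptide exit tunnel, had the second largest SD (0.55), with 132 to 371 CPM within male statin alone. Rps24, a 40S protein needed to process the rRNA of its subunit, had an SD of 0.52 and measured 157, 270.2 and 182 CPM on chow and 286, 126 and 192 on statin in females. In males it measured 191, 145 and 119.5 on chow and 104, 191 and 269.6 on statin. In these 3 genes the livers with high and low values were those with high and low total shares.

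The start motif was found in steady and in variable genes. The median within-group SD was 0.37 in the 13 genes with a run at the annotated start, 0.36 in the 23 with a run nearby, 0.31 in the 23 with none and 0.26 in the 22 without an entry, and the ranges overlapped, from 0.08 to 0.46 with a run at the start and from 0.07 to 0.49 with none.

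The 5 genes outside the family that varied most like it are given as a description. Across the 12 livers, the within-group deviations of Gm10736 had the highest correlation with the mean deviation of the 79 genes (r = 0.999). It is annotated as a processed pseudogene with a transcript of only 78 bases. Of the stretches of Rpl41, 5.86% also occur in it, about as many as so short a transcript can hold. Its reads may therefore not be told apart from those of Rpl41. Rpl36al followed (r = 0.994), a close copy of Rpl36a that the rule on symbols leaves out. Rack1, a 40S protein under another name (r = 0.990), Tpt1, the translationally controlled tumour protein (r = 0.990), and the peptidyl-prolyl isomerase Ppia (r = 0.988) came next. Rack1 and Tpt1 are also in the list of 18 TOP mRNAs outside the ribosome. Of the 11887 genes outside the family, 787 had a correlation over 0.9, so the likeness is not particular to these 5. At the opposite end Ccdc47, an endoplasmic reticulum protein with an mRNA of 5193 bases, had r = -0.997.

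With simvastatin in females, no ribosomal protein gene passed an adjusted p of 0.05 (edgeR, lowest adjusted p = 0.592), where 0.1% of all 11968 genes did. At an unadjusted p under 0.05 there were 0 of the 81, against 10.5% of all genes. The median log2 fold change was -0.06, with 22 values above 0 and 59 below, against a median of 0.01 over all genes, of which 52.8% were above 0. In 0 genes were the 3 statin livers wholly above the chow livers, against 6.03% of all genes, and in 0 wholly below, against 5.97%. The standard error of a fold change was 0.11 to 0.42 (median 0.24), so differences of the size of the median could not be detected for a single gene.

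Below 0 in females, the smallest p-values belonged to Rpl4 (log2 fold change -0.21, standard error 0.12, adjusted p = 0.592, edgeR), Rplp2 of the acidic stalk (-0.18), the copy Rps4l (-0.24) and Rpl29 (-0.16). Above 0 they were Rpl13a (0.22), Rps3a2 (0.17), Rps27 (0.19) and Rpl22 (0.10), all with an adjusted p of at least 0.925. Rps6, the 40S protein phosphorylated by the S6 kinases, measured 121, 158 and 125 CPM on chow and 150, 109 and 131 on statin. Its log2 fold change of -0.05 had an interval of -0.45 to 0.34 (1.96 standard errors). The median of the family depended on single livers: it was -0.24 without female statin 1 and 0.10 without female statin 2, and the count above 0 ran from 3 to 61.

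In males, 0 of the 81 genes passed an adjusted p of 0.05 (edgeR, lowest adjusted p = 1.00), where 0.0% of all genes did. Rps3a2 was the only gene at an unadjusted p under 0.05, against 1.96% of all genes, and the only gene whose statin livers lay wholly above the chow livers, against 3.64%. No gene lay wholly below, against 4.3%. Rps3a2 measured 1.10, 1.003 and 1.24 CPM on chow and 1.27, 1.61 and 1.87 on statin in males, which is just above the filter on low counts, and 76.7% of its stretches are also in Rps3a1. The median log2 fold change of the 81 genes was 0.11, with 73 above 0 and 8 below, against 0.00 over all genes and 0.07 over the 502 other short mRNAs.

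After Rps3a2 (log2 fold change 0.51, standard error 0.23), the smallest p-values above 0 in males belonged to Rpl22l1 (0.44), Rpl7l1 (0.18) and Rpl34 (0.30), and among those below 0 were Rps4l (-0.26), Rpl4 (-0.06) and Rps29 (-0.07), all with an adjusted p of 1.00 by edgeR. Rps6 had a log2 fold change of 0.07 with an interval of -0.32 to 0.47. In males, too, single livers set the sign of the median. It was -0.13 without male statin 3 and 0.31 without male statin 1, with 3 to 77 genes above 0. With a correction for transcript length the median was 0.02, with 52 above 0.

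**Figure D4:**
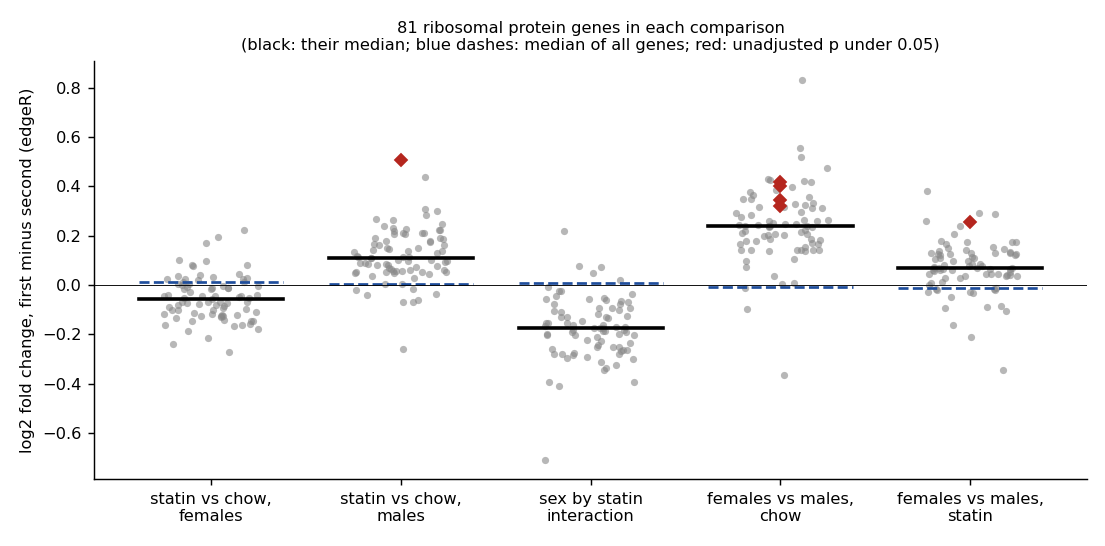
Log2 fold change (y axis) of each of the 81 genes in the 5 comparisons (x axis), with the median of the 81 as a black bar, the median of all 11968 genes as blue dashes and genes at an unadjusted p under 0.05 in red. The median of the 81 is -0.06 for statin in females, 0.11 for statin in males, -0.17 for the interaction, 0.24 for females against males on chow and 0.07 on statin.

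The responses of the sexes were compared as an interaction, the female log2 fold change minus the male one. No ribosomal protein gene passed an adjusted p of 0.05 (edgeR, lowest adjusted p = 0.898), as did 0.0% of all genes, and 0 were at an unadjusted p under 0.05, against 8.01% of all genes. The median was -0.17, with 5 values above 0 and 76 below, against 0.01 over all genes and -0.07 over the other short mRNAs. With a correction for transcript length it was -0.08, with 19 above 0 and 62 below. The smallest p-values belonged to Rpl22l1 (-0.71, standard error 0.60), Rplp2 (-0.25), Rps3a2 (-0.34) and Rpl8 (-0.23), a 60S protein near the peptidyl transferase centre. Among the 5 genes above 0 were Rpl13a (0.22), Rpl22 (0.05) and Rps27 (0.08). The median was 0.05 without male statin 3 and -0.37 without male statin 1.

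On chow, ribosomal protein genes had higher values in females than in males in 78 of the 81, with a median log2 fold change of 0.24, but none passed an adjusted p of 0.05 (edgeR, lowest adjusted p = 0.102), where 10.4% of all genes did. By DESeq2, Rps4x and Rps26 passed, or 2 of 81 against 16.3% of all genes. With the chow livers fitted alone Rpl22l1, Rpl36a, Rpl39 and Rps26 passed, or 4 of 81 against 18% of all genes. At an unadjusted p under 0.05 there were 4 of 81, all higher in females, against 24.9% of all genes. The 3 female livers lay wholly above the 3 male livers in 21 genes, against 18.5% of all genes, and wholly below in 0, against 19.1%. The median of all genes was -0.01, that of the other short mRNAs 0.05, that of the proteasome subunits 0.13 and that of the mitochondrial ribosomal protein genes -0.05. The median stayed above 0 with each liver left out, between 0.10 without female chow 2 and 0.35 without male chow 1. Summed markers of Kupffer cells and macrophages were also higher in the female chow livers, at 556 to 704 CPM against 307 to 482 in male chow, all 8 markers being detected. Markers of lymphocytes, all 8 detected, were at 16.1 to 20.9 against 12.04 to 19.9. Summed markers of stellate cells (359 to 432 against 245 to 280.1), sinusoidal endothelium (262 to 279.5 against 175 to 235), cholangiocytes (30.7 to 45.8 against 26.9 to 29.4) and proliferating cells (3.65 to 6.17 against 1.07 to 1.95) were also higher in female chow without overlap. Those of erythroid cells were lower (173 to 191 against 232 to 251). The part of these cells in the difference was not tested.

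The gene with the smallest p on chow was Rps4x, the X-linked 40S protein. It measured 268, 321 and 253 CPM in female chow and 225, 207 and 204 in male chow, without overlap (log2 fold change 0.40, standard error 0.15, adjusted p = 0.102, edgeR). Rps26, a 40S protein at the mRNA exit channel, measured 99.2, 102 and 93.2 CPM in female chow and 81.2, 76.7 and 78.0 in male chow (log2 fold change 0.32, standard error 0.12, adjusted p = 0.107, edgeR). Rplp2 had 145, 158 and 134 CPM in females and 121, 111 and 112 in males (0.35 on the log2 scale, adjusted p = 0.177, edgeR). The X-linked Rpl36a had 58.4, 69.5 and 57.4 CPM in females and 49.5, 43.2 and 45.9 in males (0.42 on the log2 scale, adjusted p = 0.179, edgeR). Only 3 genes were lower in females, Rps4l (-0.36), Rps27 (-0.10) and Rpl22 (-0.01), and the last was above 0 with a correction for transcript length (0.02). The widest difference was in Rpl22l1, at 0.83 on the log2 scale with a standard error of 0.43 (adjusted p = 0.254, edgeR).

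All 4 X-linked genes were higher in females on chow. Beside Rps4x and Rpl36a these were Rpl39 (0.47), a small protein of the peptide exit tunnel, and Rpl10 (0.26), which joins the 60S subunit late. Their median of 0.41 stands beside 0.24 for all 81. On statin the X-linked median was 0.19. In the main edgeR fit of all 12 livers 0 of the 4 passed an adjusted p of 0.05 on either diet, where 10.4% of all genes passed on chow and 6.28% on statin. On chow Rps4x passed by DESeq2 (16.3% of all genes did), Rpl36a and Rpl39 with the chow livers fitted alone (18% of all genes), and Rpl39 with a correction for transcript length (14.4% of all genes). Rps4x, Rpl36a and Rpl39 passed with the length slope of a liver as a covariate, added after seeing the data (27.5% of all genes). Rps4x on statin measured 293, 247 and 245 CPM in females and 191, 218 and 256 in males, and the sexes overlapped.

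On statin the median of females against males was 0.07, with 64 genes above 0 and 17 below, against a median of -0.01 over all genes. No gene passed an adjusted p of 0.05 (edgeR, lowest adjusted p = 0.254), where 6.28% of all genes did. Rps26 was the only gene at an unadjusted p under 0.05, against 19.4% of all genes, and the only gene whose female livers lay wholly above the male livers, against 11.1%. Wholly below were 0, against 8.46%. Next came Rps29 (0.26), Rps28 (0.29) and Rps4x (0.24), all of the 40S subunit, and among those below 0 were Rps4l (-0.34), Rps27l (-0.21) and Rpl35a (-0.16). With the depth of each liver alone as the scale, 33 of the 81 were above 0 and the median was -0.02, while that scale moved the median of all genes to -0.10. The median was -0.14 without male statin 1 and 0.32 without male statin 3. Summed markers were also higher in females on statin, without overlap, for Kupffer cells and macrophages (476 to 862 CPM against 306 to 399), stellate cells (299.6 to 397 against 247 to 296) and lymphocytes (22.5 to 33.5 against 10.5 to 16.6). Those of hepatocytes were also higher (116861 to 146605 against 84043 to 93338), and the part of these cells was not tested.

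Rps26 (ENSMUSG00000025362, chr10:128624534-128626747 of GRCm38, minus strand) was the only ribosomal protein gene whose 6 female livers all lay above the 6 male livers, against 5.16% of all genes, and 0 lay wholly below, against 3.63%. The female livers on statin measured 102, 87.6 and 88.3 CPM and the male livers on statin 69.2, 76.2 and 87.5. The lowest female liver, at 87.6, was next to the highest male liver, at 87.5. On statin the sexes differed by 0.26 on the log2 scale (standard error 0.12, adjusted p = 0.254 by edgeR), and with any single liver left out it stayed between 0.17 and 0.35. Rps26 was among the steadiest genes of the family, with a within-group SD of 0.11.

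**Figure D5:**
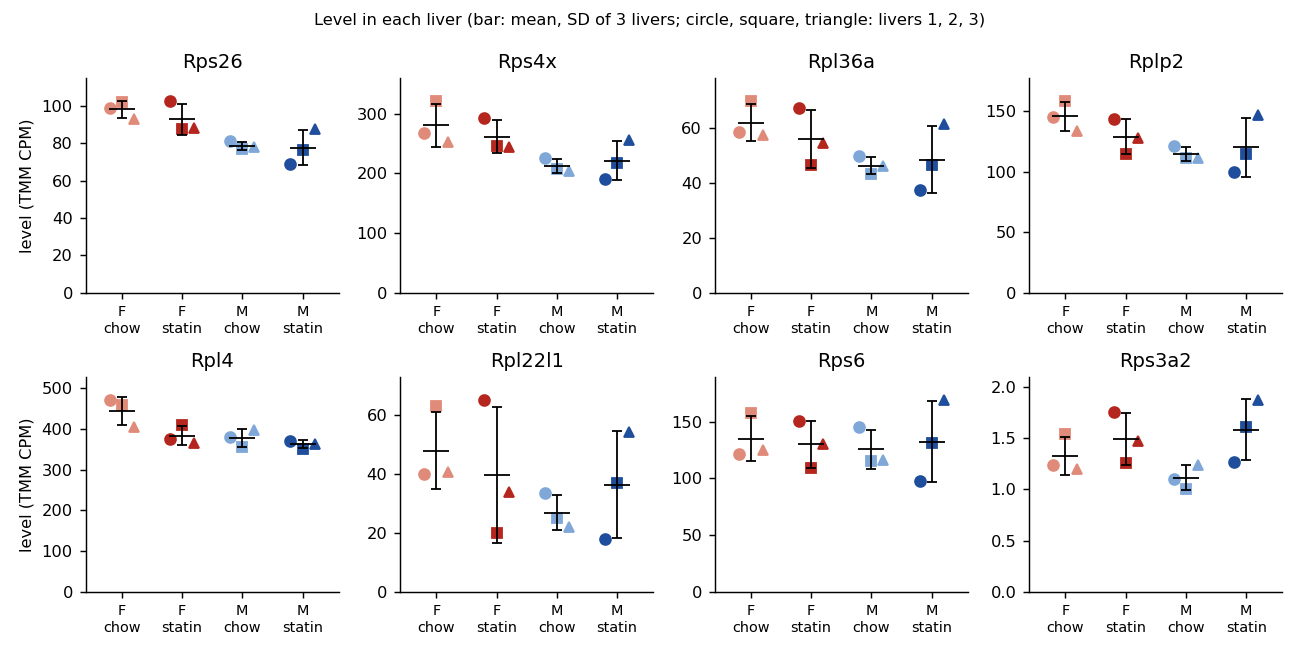
Level in TMM-normalised CPM (y axis, from 0) of 8 genes in each of the 12 livers, by group (x axis), with the mean and SD of 3 livers. The female livers of Rps26 all lie above the male livers, Rpl4 varies little, the groups of Rps6 overlap, and those of Rpl22l1 overlap except for females against males on chow.

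The functional parts of the ribosome are given by their medians, which were not tested against each other. The median log2 fold change with statin in females was -0.07 over the 60S genes and -0.01 over the 40S genes, and in males 0.09 and 0.13. On chow the medians of females against males were 0.24 and 0.25. Over the 4 acidic stalk genes the statin medians were -0.15 for females and 0.11 for males, and over the 5S RNP -0.10 and 0.13. Of the stalk genes, Rplp0 had a log2 fold change with statin of 0.08 in females and 0.15 in males, Rplp1 of -0.15 and 0.03, Rplp2 of -0.18 and 0.07, and Rpl12, which anchors the stalk, of -0.16 and 0.25. Rpl12 was higher in females than in males on chow without overlap (163, 256 and 174 CPM against 156, 126 and 123), by 0.55 on the log2 scale (adjusted p = 0.3005, edgeR). Rpl5 and Rpl11, which form the 5S RNP that also restrains the p53 inhibitor MDM2, had log2 fold changes with statin of -0.09 and -0.10 in females and 0.16 and 0.10 in males. Of the 8 genes at the rim of the tunnel exit, 2 were above 0 in females and 8 in males. Rpsa, the 40S protein also known as the laminin receptor, measured 369.7, 503 and 397 CPM on chow and 469, 309 and 372 on statin in females. In males it measured 364, 309.5 and 290.1 on chow and 258, 358 and 453 on statin. On chow its female livers lay wholly above the male livers, by 0.40 on the log2 scale (adjusted p = 0.291, edgeR).

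Of the 8 paralogs listed, 5 were in the filtered table. Per kilobase of merged exon, Rps27l, a p53-responsive paralog, was at 156 CPM and its ancestral gene Rps27 at 128, but per kilobase of mRNA the order was reversed (255 and 386). Rpl22l1 was at 18.9 CPM per kb of merged exon and Rpl22 at 30.2, and per kilobase of mRNA this order was reversed too (68.2 and 42.9). Rpl7l1, which takes part in ribosome assembly, was at 16.5 CPM per kb of merged exon and Rpl7 at 108. Rps4l was at 11.2 CPM per kb of merged exon and Rps4x at 149, and the fold changes of Rps4l between the sexes (-0.36 on chow and -0.34 on statin) were opposite in sign to those of Rps4x. These 5 were Rpl7l1, Rpl22l1, Rps4l, Rps27l and Rpl36al, which is outside the 81. Their median was -0.24 with statin in females and 0.24 in males, and 0 of the 5 passed an adjusted p of 0.05, where 0.1% and 0.0% of all genes did. Among genes that fuse a ribosomal protein to ubiquitin or a ubiquitin-like protein, Fau ranged from 124 to 280.3 CPM before TMM scaling, and Rps27a is among the 81.

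Genes around the ribosome were compared through 3 lists. With statin 0 of 18 TOP mRNAs outside the ribosome passed an adjusted p of 0.05 (0.1% of all genes in females, 0.0% in males). In females 14 were above 0, with a median of 0.10, and in males 8, with a median of -0.02. The smallest p-values in females were those of Eif4b (0.25) and Eef1d (0.13) above 0 and of Vim (-0.37) and Eef1g (-0.27) below it. In males they were those of Rack1 (0.17), Eif3e (0.11), Hnrnpa1 (-0.34) and Eef2 (-0.17). The intermediate filament gene Vim was higher in females on chow (0.91 on the log2 scale with standard error 0.17 and an edgeR adjusted p = 0.00462) and on statin (0.65, adjusted p = 0.0358), the only one of the 18 that passed on either diet, where 10.4% of all genes passed on chow and 6.28% on statin. Of 37 genes of ribosome biogenesis, 0 passed in any of the 5 comparisons, where 10.4% of all genes passed between the sexes on chow, 6.28% on statin and at most 0.1% in the other 3. With statin, 18 were above 0 in females and 25 in males, and Rrp12 (0.61), Wdr12 (0.20), Bop1 (-0.27) and Polr1c (-0.29) had the smallest p-values in females, while Ltv1 (0.21), Rrn3 (0.16), Myc (-1.19) and Nob1 (-0.14) had them in males.

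With statin, 0.1% of all genes passed an adjusted p of 0.05 in females and 0.0% in males. Of 15 genes of mTORC1 signalling and translation control, 0 passed in either sex. The smallest p-values in females were those of Rps6kb2 (0.28) and Mtor (0.36) above 0 and of Rheb (-0.26) and Eif4ebp1 (-0.26) below it. In males they were those of Eif4ebp1 (0.16), Deptor (0.17), Tsc1 (-0.41) and Rps6kb2 (-0.13). On chow, Rps6kb2, which encodes an S6 kinase, was lower in females than in males (-0.60 on the log2 scale, with standard error 0.15 and adjusted p = 0.0243 by edgeR). It was the only one of the 15 to pass, where 10.4% of all genes did. In females against males on chow, 12 of the 37 biogenesis genes were above 0, with a median of -0.09, and 4 of the 15 mTORC1 genes, with a median of -0.13, beside 78 of the 81 ribosomal protein genes. In that comparison Wdr12 (-0.36) and Polr1b (-0.40) had the smallest p-values of the biogenesis genes below 0, and Pes1 (0.13) and Polr1c (0.23) above it. In the interaction the smallest p-values of the 3 lists were those of Hnrnpa1 (0.44), Eif4ebp1 (-0.42) and Rps6kb2 (0.42). None passed an adjusted p of 0.05, where 0.0% of all genes did.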

How the data were processed

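Poly(A) RNA of 12 livers was sequenced in 50-base pairs. Per the labels, the authors aligned reads with STAR 2.4.1a to GRCm38, counted them with HTSeq and used edgeR 3.28.1. They deposited raw counts for 11968 genes above 1 CPM in at least 6 livers, and CPM for all genes, of which 100% were whole reads within 0.05. The counts were fitted with edgeR 4.0.16 (quasi-likelihood, TMM, 4 group means, two-sided, Benjamini-Hochberg over all genes). Standard errors were derived from each log2 fold change and its F statistic. Spread used log2(TMM CPM + 1). limma 3.58.1 and DESeq2 1.42.0 were alternatives. Annotation was GENCODE vM21, which is not the release the study names. The methods were tested on simulated counts. Livers are separate mice. Members and lists were chosen with earlier results of these data known.

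Genes are named by these rules: in each comparison the 4 members above and 4 below 0 with the smallest p, the 5 highest and lowest per kilobase, the 3 smallest and largest within-group SDs, paralogs and their ancestral genes, X-linked members, stalk, 5S RNP, Rps6 and Rpsa, the 2 smallest p each way of other lists and the 5 genes most alike. Of the other lists, genes of the comparisons between the sexes and of the interaction are given in part. A few genes that these rules select are not reported here. Alternatives were other scalings, filters, tools and member lists, the table without its 10 highest genes, a transcript length correction, the replicate block, only the livers compared, each liver left out and, added after seeing the data, the length slope of a liver as a covariate. Intervals of fold changes rest on edgeR standard errors and so include the spread between livers, while floors (3 counts) cover counting error only.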

Additional observations from a re-analysis of the deposited data

How the results depend on the processing

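In no alternative did a member pass an adjusted p of 0.05 in the statin comparisons or the interaction. Of all genes, at most 3.65% passed for statin in females, with the length slope as a covariate, and 2.26% did by DESeq2. At most 0.0334% passed for statin in males and 1.02% for the interaction, both by DESeq2. For females against males on chow, where 0 passed, 1 passed with a correction for transcript length (14.4% of all genes), 4 with only the livers compared in the fit (18%), 2 by DESeq2 (16.3%) and 14 with the length slope of each liver as a covariate, an alternative chosen after seeing the data under which 27.5% of all genes passed. For females against males on statin 1 member (Rps26) passed with that covariate, against 18.96% of all genes. With a liver left out 0 passed in every comparison. Of all genes, 5.31% to 13.3% then passed for the sexes on chow and 3.16% to 6.21% on statin. At most 0.627% passed in the statin comparisons and the interaction. Medians shifted by less than the SD between livers (0.28) in all alternatives, but 4 of the 5 changed sign when a liver was left out, that of the sexes on statin also with library size alone (-0.02). With a liver left out they ran from -0.24 to 0.10 for statin in females, from -0.13 to 0.31 in males, from -0.37 to 0.05 for the interaction, from 0.10 to 0.35 for the sexes on chow and from -0.14 to 0.32 on statin. Of 36 single-gene values, 26 kept their sign throughout. Rpl22 on chow turned to 0.018 with the length correction and to 0.037 with the stricter filter, and its interaction to -0.00682 with library size alone.
With a liver left out, Rpl22 on chow ran from -0.12 to 0.072 and its interaction from -0.11 to 0.25. Rps27 on chow ran from -0.32 to 0.024 and its interaction from -0.19 to 0.40. Rpl13a ran from -0.10 to 0.46 in females and from -0.12 to 0.53 in the interaction. In males Rpl34 ran from -0.019 to 0.57 and Rps29 from -0.21 to 0.029. Between the sexes on statin Rpl35a ran from -0.40 to 0.13 and Rps27l from -0.49 to 0.092. The cause was not tested.
With the replicate number as a block (replicate block), 0 members passed in each comparison and the medians were -0.06, 0.10, -0.17, 0.24 and 0.08. Of all genes, 0.0418%, 0.0%, 0.0%, 7.53% and 4.76% passed in the same order. Same-numbered livers had a mean correlation of deviations of -0.11 over 18 pairs (-0.75 to 0.67), against 0.06 for 36 others (-0.68 to 0.75). Values spread this widely cannot show whether the numbers pair the livers. Depth limits only genes near 3 counts, which were 0.0497 to 0.0651 CPM in a liver.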
